A study of Oryza sativa with 6 samples.

Results

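The calcium-dependent protein kinases (CPKs, also written CDPKs) and the CBL-interacting protein kinases (CIPKs) are the main kinase families through which plants pass calcium signals on to other proteins. In detached rice leaves kept in the dark with or without a cytokinin, their transcripts were picked by name: a gene was a member where its symbol or a synonym was CPK, CDPK or CIPK followed by a number, with or without the prefix Os, and where at least 1 probe set of the array listed that gene and no other. The reference names 54 such genes, 24 CPKs and 30 CIPKs. Of these, 44 could be read, 20 CPKs and 24 CIPKs, among 17905 genes with a probe set of their own. The 10 without one were CPK11, CPK14, CPK25, CPK28, CIPK3, CIPK9, CIPK13, CIPK15, CIPK27 and CIPK33, and they are not analysed here.

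BA-treated leaves stood in 2 mg/ml of the synthetic cytokinin 6-benzyl adenine (BA), and untreated leaves in the same alkaline detergent solution (NaOH and Tween 20) without BA. Both groups were the third leaf of plants 30 days old of N22 (Nagina22), a rice cultivar, with 5 g of tissue a replicate, and both stood in darkness for 72 h to bring on dark-induced senescence (DIS). One label field of the samples gives 2 h in place of 72 h, and 72 h is taken as the length of DIS because the protocol states it. Each group had 3 arrays, described as biological replicates, and no array was made before the dark period, so higher or lower always means with BA against without it. Leaf tissue holds several cell types, and fewer cells of a type cannot be told apart from less RNA per cell.

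A CPK carries its kinase domain and a calmodulin-like domain with calcium-binding EF hands in a single protein, so that calcium switches the kinase on directly. A CIPK binds no calcium itself. It is switched on when a calcineurin B-like protein (CBL), a small EF-hand sensor, binds calcium and docks on the NAF motif of its regulatory part, and the pair then acts at the plasma membrane or the vacuole. CPKs and CBL-CIPK pairs are known for tuning ion channels and transporters, NADPH oxidases and responses to abscisic acid, salt, drought, cold and pathogens, and CIPKs belong to the SnRK3 branch of the kinase group that also holds SnRK1 and SnRK2.

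The deposited value is 1 signal per probe set and array in arbitrary units, compared as log2(signal + 1) with limma. The lowest signal was 16 and the array medians lay between 22.5 and 23.3, so a gene near these values has a log2 change pressed towards 0. The labelled tissue showed in the photosynthesis genes petC, RBCS1, rca, rbcS and CAB2R, which were above the array median on every array. Of these 5 leaf genes, petC, RBCS1 and rca had every BA array above every untreated array (log2 changes 1.07, 0.79 and 0.79), while rbcS (0.70) and CAB2R (-0.20) overlapped. Not every gene typical of other organs was dim. Of 6 seed storage genes 4 were under the median on all 6 arrays, but GLUA-2 (60.0 to 79.9) and GLUB-4 (24.9 to 31.7) were above it on all of them. Of 3 root genes, Lsi1 and NRT2.2 lay near the median, between 19.2 and 30.6, and NRT2.3 lay between 43.2 and 101. NRT2.2 and NRT2.3 were read from probe sets of the class open to cross-hybridization (_x_at). Whether these signals are background, cross-hybridization or transcript of the gene was not tested. The closest pair of arrays was BA replicates 2 and 3: the SD of their log2 difference over all probe sets was 0.16, against 0.416 to 0.615 in any other pair. Over the kinase genes alone the same SD was 0.15 against 0.473 to 1.00. The SEs, intervals and p-values of the main fit took all 6 arrays as independent. Whether this pair comes from separate samples was not tested. Controls moved with the treatment as well: the log2 difference between the groups was -0.92 over 42 poly-A control probe sets, -0.45 over 27 hybridization controls and -1.44 for 28S rRNA, which was far above the other arrays on untreated replicate 3. Their part in the kinase values was not tested.

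Of the 44 kinase transcripts, 30 lay lower with BA and 14 higher, and for 15 the sign turned under at least 1 alternative setting. CIPK29 and CPK4 lay the farthest down among CIPKs and CPKs, and CIPK21 and CPK17 the farthest up. The CPK log2 change was below 0 for 14 genes and above 0 for 6, with a median of -0.097. For CIPKs 16 lay below 0 and 8 above, with a median of -0.18. Of all 17905 genes 9072 lay below 0 and 8833 above, with a median of -0.0035. By array, the median log2 deviation of CPKs from their untreated mean was -0.088, -0.14 and -0.14 with BA. It was 0.049, 0.047 and -0.195 without, so untreated replicate 3 lay below every BA array. For CIPKs the same median was -0.23, -0.13 and -0.14 with BA and -0.056, -0.088 and 0.16 without. None of the 44 passed an adjusted p under 0.05 from limma with Benjamini-Hochberg adjustment over 57258 probe sets, where the lowest was 0.203, for CIPK29. That test called 0.159% of all probe sets and 0.29% of the genes. The study selected genes on over 1.5-fold with a p under 0.05, and for the arrays it names no test and no adjustment. Here the study's thresholds were applied with the unadjusted limma p. At these, 1 kinase gene was higher with BA and 5 were lower, or 2.27% and 11.4% of the 44. Of all genes, 3.18% were higher and 4.74% lower. The count of 5 rests on single arrays and on the estimate of spread. It fell to 2 without BA replicate 2 (4.55%, against 3.92% of all genes in that fit). It was 3 without BA replicate 3 or without untreated replicate 1 (6.82%, against 3.71% and 4.57% of all genes). It was 4 without BA replicate 1 (9.09%, against 3.99%) and rose to 6 without untreated replicate 3 (13.6%, against 6.56%). With BA replicates 2 and 3 averaged or with no moderation of the spread it was 2. With array weights it was 6, and with a trend in the spread 7. For these last settings the share of all genes was not computed. An unadjusted limma p under 0.05 of any fold was met by 3 higher and 7 lower, or 6.82% and 15.9%, where 6.42% and 7.84% of all genes met it. For 2 kinase genes every BA array lay above every untreated array and for 9 every BA array lay below, or 4.55% and 20.5%, against 7.61% and 10.1% of all genes. With all 6 arrays these shares on the lower side were above those of all genes, and those on the higher side were below or close to them, which describes the list and is no test of it. The higher side at the study's thresholds also rested on single arrays. It held 4 genes without BA replicate 1 (9.09%, against 4.46% of all genes) and 3 without untreated replicate 2 (6.82%, against 3.37%). Without untreated replicate 3 it held 0 (against 3.38%). With all 6 arrays the lower side divided between the families into 2 CPKs and 3 CIPKs at the study's thresholds.

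**Figure D1:**
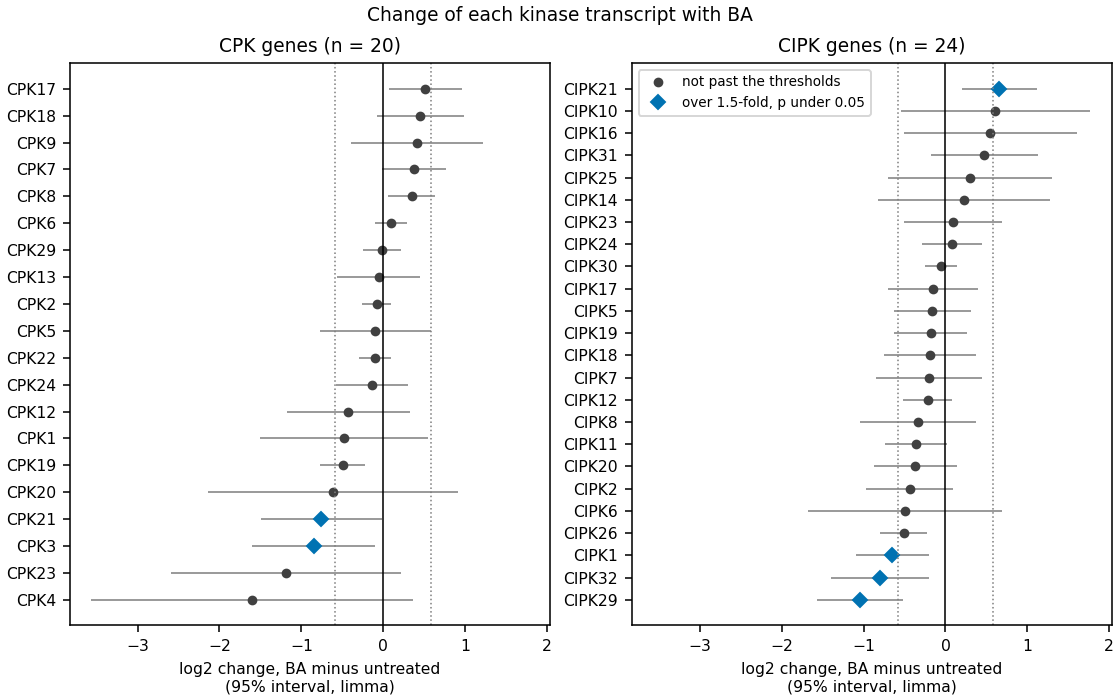
Log2 change of each kinase transcript, BA minus untreated, on log2(signal + 1), for 20 CPK genes (left) and 24 CIPK genes (right), with 95% intervals from limma over 3 arrays a group. Dotted lines mark a 1.5-fold change, and diamonds mark the 6 genes past the study's thresholds, of which only CIPK21 lies on the side of higher signal with BA.

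CIPK29 gave the clearest difference among the CIPKs and CPKs. Its signal was 262, 195 and 150 on the BA arrays and 446, 421 and 358 on the untreated arrays. Every BA array was below every untreated array, and the BA level was 0.486 of the untreated level (log2 change -1.04 ± 0.21 SE, limma adjusted p = 0.203). It stayed past the study's thresholds under all 19 alternative settings, with log2 changes between -1.25 and -0.84. In the reference CIPK29 stands directly beside CIPK2 with no gene between them. CIPK2, read from a probe set of the class open to cross-hybridization (_x_at), had 653, 410 and 415 with BA and 564, 646 and 757 without, and its groups overlapped (log2 change -0.44, limma adjusted p = 0.71). Another CIPK2 probe set outside that class gave 133, 153 and 153 with BA against 188, 235 and 246 without, where the groups did not overlap, and it was past the study's thresholds on the lower side (log2 change -0.60 ± 0.13, limma adjusted p = 0.22).

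CIPK1, CIPK32 and CIPK26 had the same direction. CIPK1 read 222, 324 and 337 with BA and 495, 409 and 464 without, so all BA arrays lay below the untreated ones (log2 change -0.65 ± 0.18, adjusted p = 0.36 from limma). BA replicate 1 was the lowest of these, and without it the CIPK1 change was -0.46 and no longer past the study's thresholds, which held under 17 of the 19 alternatives. CIPK32 had 209, 178 and 195 with BA, a narrow range, against 309, 254 and 491 without (log2 change -0.80 ± 0.24, adjusted p = 0.41 from limma). Its highest value was on untreated replicate 3, without which the change was -0.53 and no longer past the thresholds. It was also not past them without BA replicate 2 and under 4 other alternatives, and held under 13 of 19. The other CIPK32 probe set, between 18.6 and 24.5 on the 6 arrays and so near the lowest signal, gave -0.27. CIPK26 showed 68.4, 65.1 and 60.0 with BA and 88.8, 106 and 83.4 without. The spread within each group was small and the groups did not overlap, but the log2 change of -0.51 ± 0.11 stayed under 1.5-fold (adjusted p = 0.24 from limma). No role of these rice genes is stated here beyond their family.

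**Figure D2:**
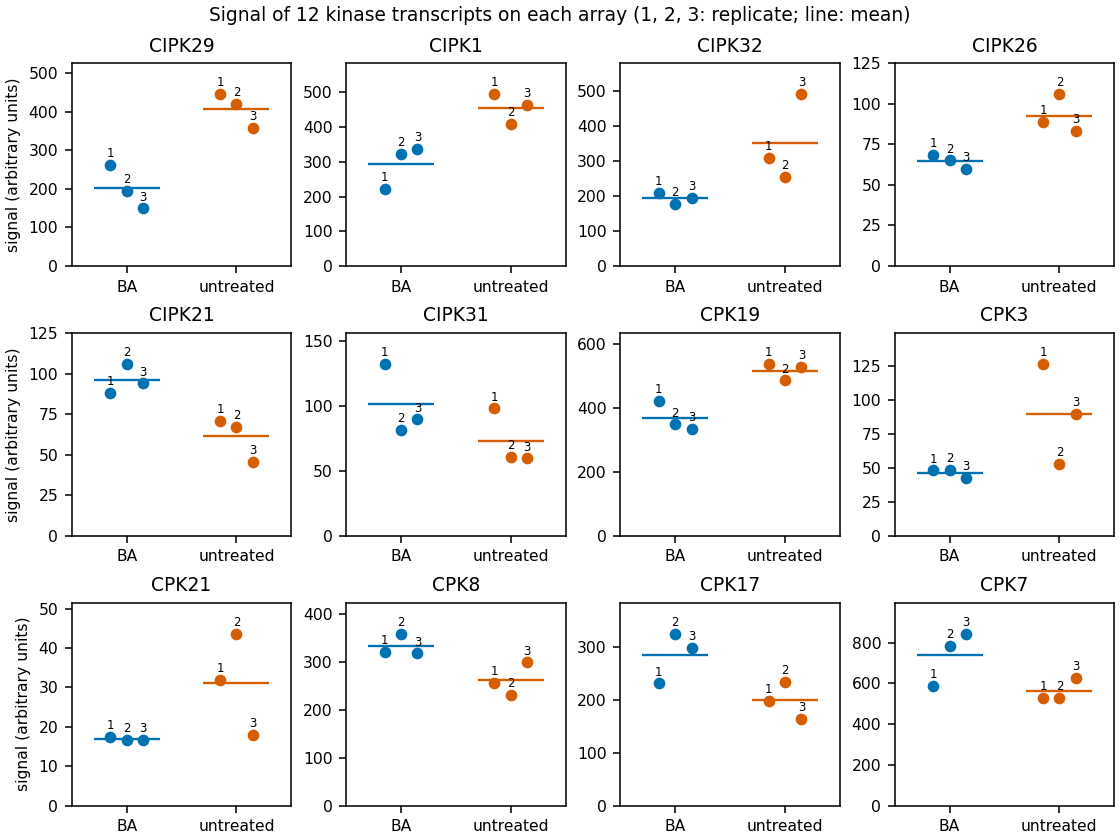
Signal in arbitrary units on each of the 6 arrays for 12 kinase transcripts, BA left and untreated right in every panel, with the replicate number at each point and a line at the group mean. CIPK29, CIPK1, CIPK32, CIPK26, CPK19, CPK3 and CPK21 have all BA points below the untreated points, and CIPK21 and CPK8 have them above.

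CIPK21 was the only member on the higher side past the study's thresholds. Its signal was 88.1, 106 and 94.1 with BA against 71.1, 67.3 and 45.8 without, with no overlap (log2 change 0.66 ± 0.18, adjusted p = 0.36 from limma). Untreated replicate 3 was the lowest of the 6, and without it the change was 0.46 and not past the thresholds, which CIPK21 kept under 17 of the 19 alternatives. CIPK31, which has been tied to seedling growth of rice under stress, had 132, 81.3 and 89.7 with BA and 98.1, 60.8 and 59.6 without. In both groups replicate 1 was the highest, and the groups overlapped (log2 change 0.47, 95% interval -0.18 to 1.12). CIPK10 had 203, 315 and 400 with BA against 213, 101 and 329 without, an overlap wide enough that the interval of its change of 0.61 ran from -0.54 to 1.77. All 4 probe sets of CIPK10 lay on the higher side, from 0.33 to 0.61.

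CIPK24 and CIPK14 were named for their signal and not for a difference. CIPK24 is the rice counterpart of SOS2, the kinase that drives sodium export through the SOS1 antiporter, and it had 497, 634 and 600 with BA against 515, 485 and 645 without. The groups overlapped and the interval of the log2 change of 0.077 ran from -0.29 to 0.44. CIPK14, linked to defence responses in cultured rice cells, had 1181, 973 and 1071 with BA against 1297, 452 and 1313 without. Its untreated replicate 2 stood far below the other 5 arrays, and the change of 0.23 had an interval from -0.82 to 1.27.

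The other CIPKs overlapped between the groups, apart from CIPK11. CIPK11 had 21.7, 25.1 and 24.4 with BA against 28.6, 26.4 and 38.4 without, close to the lowest signals (log2 change -0.36, adjusted p = 0.61 from limma). CIPK23, which together with CBL1 activates the potassium channel AKT1 in rice roots, had 259, 419 and 380 with BA and 249, 343 and 395 without (log2 change 0.095, 95% interval -0.51 to 0.70). CIPK7, tied to chilling tolerance, had 438, 391 and 316 with BA against 561, 495 and 297 without, a change of -0.20. CIPK12, whose overexpression raised drought tolerance in rice, stayed between 18.4 and 25.2 (log2 change -0.22). CIPK16 (0.55), CIPK25 (0.30), CIPK6 (-0.49), CIPK20 (-0.37), CIPK8 (-0.33), CIPK18 (-0.19), CIPK19 (-0.18), CIPK5 (-0.16), CIPK17 (-0.15) and CIPK30 (-0.055) had log2 changes whose intervals all held 0. CIPK30 was under the array median on all 6 arrays, and its neighbour in the reference is CIPK12, with no gene between them.

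Among the CPKs, CPK19 had the smallest p-value and CPK3 and CPK21 were past the study's thresholds. CPK19 had 423, 349 and 334 with BA and 539, 487 and 529 without. Each BA array was below each untreated array and the groups were tight, and the difference stayed under 1.5-fold (log2 change -0.50 ± 0.11, adjusted p = 0.24 from limma). CPK3 had 48.2, 48.7 and 42.9 with BA against 127, 53.1 and 89.9 without. The BA arrays were nearly equal while the untreated arrays were spread out, and the gap between the nearest values was small (log2 change -0.85 ± 0.31, adjusted p = 0.52 from limma). CPK21, whose overexpression raised salt tolerance and abscisic acid responses in rice, had 17.5, 16.8 and 16.7 with BA, at the floor of the signal, and 31.9, 43.7 and 18.0 without. Only 2 untreated arrays stood clear of that floor (log2 change -0.75 ± 0.30, adjusted p = 0.58 from limma). CPK3 kept its place past the thresholds under 12 of the 19 alternatives and CPK21 under 10. With 1 array left out, CPK3 remained past them only without untreated replicate 2 (log2 change -1.18) and CPK21 only without untreated replicate 3 (-1.09).

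On the higher side no CPK reached 1.5-fold with BA at the main setting. CPK8 had 320, 358 and 317 with BA and 256, 231 and 299 without, the only CPK with every BA array above every untreated array (log2 change 0.35 ± 0.12, adjusted p = 0.49 from limma). CPK17, which has been tied to the cold response of rice, had 231, 325 and 298 with BA against 199, 234 and 165 without. The groups met only at BA replicate 1 and untreated replicate 2, and the log2 change was 0.51 ± 0.18 (adjusted p = 0.51 from limma). CPK7 had 588, 783 and 844 with BA and 530, 530 and 627 without (log2 change 0.38 ± 0.16, adjusted p = 0.60 from limma). Here BA replicate 1 lay under the highest untreated array. CPK13, whose overexpression raised tolerance of cold, salt and drought, had 870, 705 and 694 with BA and 938, 875 and 579 without. Its groups overlapped fully, and the interval of the log2 change of -0.054 ran from -0.56 to 0.45.

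CPK4, a positive regulator of salt and drought tolerance in rice, had the largest log2 difference of all 44 genes and also the widest untreated group. Its signal was 285, 174 and 168 with BA against 782, 1672 and 178 without. Untreated replicate 3 lay within the BA range, and the change of -1.60 ± 0.80 had an interval from -3.56 to 0.37 (adjusted p = 0.71 from limma). CPK1, CPK20 and CPK23 were picked out after their values were seen. CPK1 had 301, 283 and 323 with BA against 376, 810 and 246 without, and CPK20 had 395, 224 and 190 with BA against 440, 839 and 163 without. In CPK1, CPK4 and CPK20 untreated replicate 2 was the highest of the untreated arrays and untreated replicate 3 the lowest. CPK23 had 68.4, 41.9 and 37.9 with BA against 157, 44.6 and 189 without, so here untreated replicate 2 was the low array. Without untreated replicate 3 the log2 changes were -2.49 for CPK4, -1.24 for CPK20 and -0.87 for CPK1, all past the study's thresholds. Without untreated replicate 2 they were -0.88, -0.066 and -0.011, and none was past them. For CPK23 the change of -1.19 became -1.83 without untreated replicate 2, past the thresholds, and -0.80 without untreated replicate 3.

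**Figure D3:**
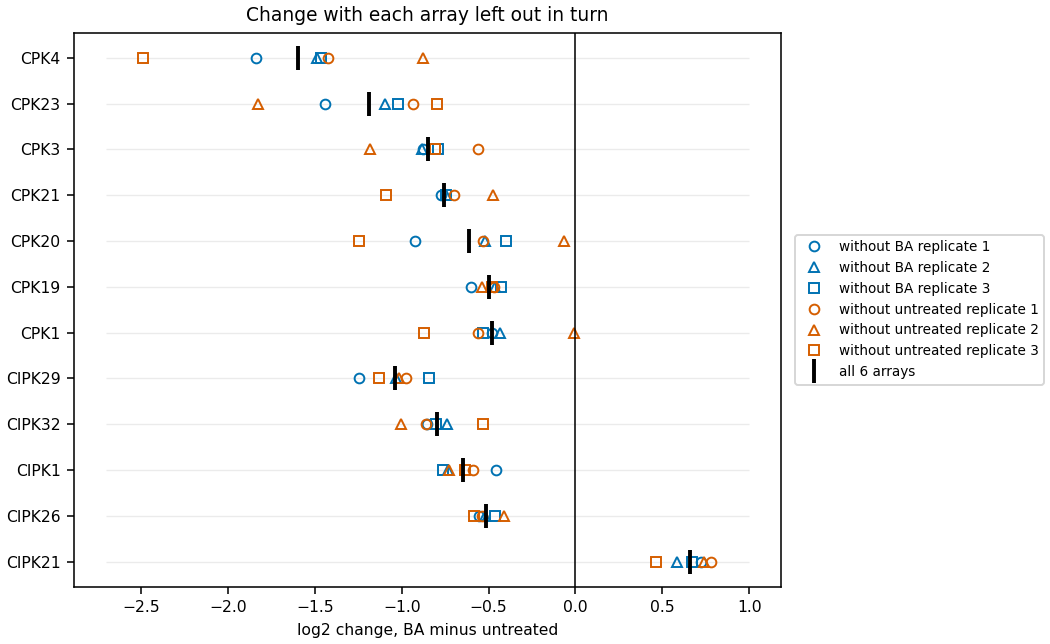
Log2 change, BA minus untreated, for 12 kinase transcripts with all 6 arrays (black bar) and with each array left out in turn (blue for a BA array, orange for an untreated array). CIPK26 stays between -0.58 and -0.41, while CPK4 runs from -2.49 to -0.88 and CPK20 from -1.24 to -0.066.

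The remaining CPKs overlapped between the groups or lay at the floor. CPK18, known to phosphorylate the kinase MPK5, had 107, 187 and 156 with BA against 92.9, 111 and 117 without (log2 change 0.45, 95% interval -0.080 to 0.99). CPK9 (0.42), CPK12 (-0.43), CPK24 (-0.13) and CPK5 (-0.095) had intervals that held 0. Of these, CPK12 is known for raising salt tolerance in rice and CPK24 for acting in the cold response. CPK2, CPK6, CPK22 and CPK29 were under the array median on all 6 arrays, between 16.3 and 20.7, so a change in them was not detectable at these signals. With CIPK30 they make 5 such members of 44, or 11.4%, against 12.8% of all genes.

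The untreated arrays differed more among themselves than the BA arrays did. In the untreated group the range between the highest and lowest array was over 1 on the log2 scale for 7 of 20 CPKs (35%) and 4 of 24 CIPKs (16.7%), against 17.3% of all genes. In the BA group it was over 1 for 1 CPK (5%) and 1 CIPK (4.17%), against 7.53% of all genes. The median range of a CPK was 0.35 with BA and 0.63 without, and that of a CIPK 0.40 with BA and 0.72 without. Over all genes the medians were 0.34 with BA and 0.48 without. The close pair, BA replicates 2 and 3, makes up 2 of the 3 arrays in the BA ranges, and its part in them was not tested.

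**Figure D4:**
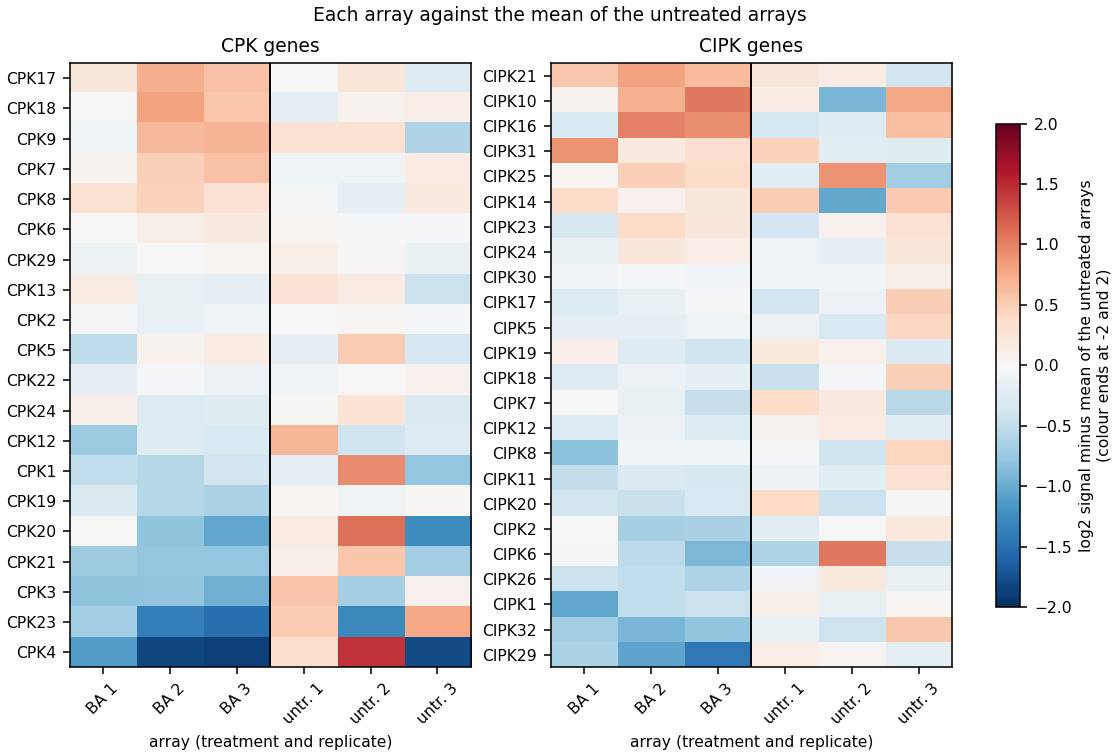
Log2 signal of every kinase transcript on each array minus its mean over the untreated arrays, CPK genes left and CIPK genes right, sorted by the change with BA. The lowest rows are mostly blue on the BA arrays, and CPK4, CPK20 and CPK1 are red on untreated replicate 2 and blue on untreated replicate 3.

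How far a value rests on its probe set could be read from 10 members with more than 1. In 8 of them all probe sets lay on the same side of 0. The exceptions were CIPK7, with -0.20 and 0.38, and CPK18, with 0.45 and -0.056. The same side did not always mean the same pattern. CIPK23 had 0.095 and 0.17, but its BA arrays read 259, 419 and 380 in the probe set used and 378, 95.6 and 97.6 in the other. Both probe sets of CIPK12 (-0.22 and -0.19) lay between 18.3 and 25.2, near the floor. Both of CPK6 were under the array median on all 6 arrays. Of the 44 values used, 31 came from plain probe sets and 13 from the classes (_a_at, _s_at and _x_at) whose probes can match more than 1 transcript. The probe sets of CPK19, CPK23, CPK7, CPK13, CIPK32, CIPK31 and CIPK14 were _a_at. Those of CPK5, CPK12, CPK18 and CIPK11 were _s_at, and those of CIPK2 and CIPK16 were _x_at, the class open to cross-hybridization. For all 13, the share of each matching transcript in the signal cannot be told.

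**Figure D5:**
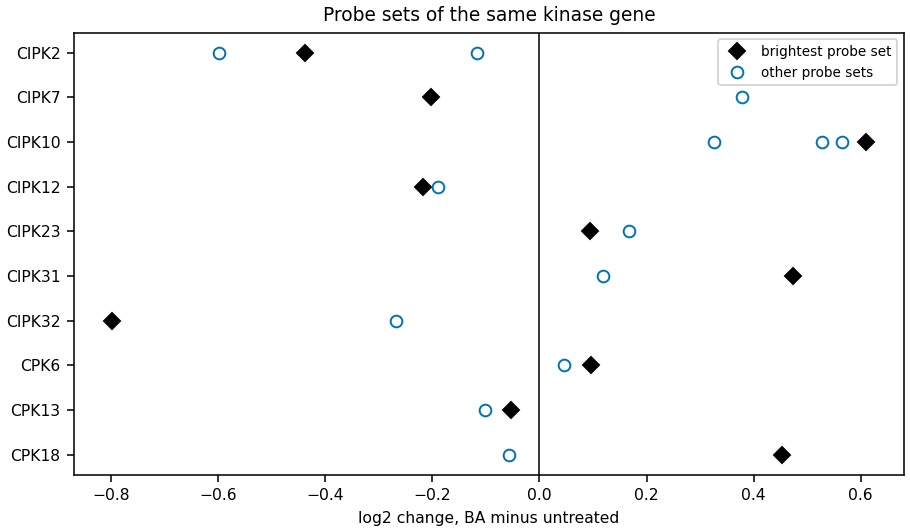
Log2 change, BA minus untreated, of every single-gene probe set of the 10 kinase genes that have more than 1, with the brightest as a black diamond. Only CIPK7 and CPK18 have probe sets on both sides of 0, and the 4 probe sets of CIPK10 lie between 0.33 and 0.61.

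Genes of calcium signalling and ion transport, NADPH oxidases and related kinases were read from the same fit, in lists made up by name. The genes given in full are mostly those past the study's thresholds. No gene of these lists passed an adjusted p under 0.05. Of the CBL sensors 7 of 9 were measured, none was past the study's thresholds, and 6 lay below 0 with a list median of -0.092. CBL9 had 23.9, 35.1 and 33.6 with BA against 38.8, 43.1 and 56.5 without, with no overlap (log2 change -0.57, adjusted p = 0.51 from limma). CBL4, the sensor that pairs with CIPK24 in the SOS pathway, had a change of -0.14 and overlapped.

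Of 4 genes named as calmodulins, which are EF-hand sensors, 1 was past the study's thresholds on each side (25%, against 3.18% of all genes higher and 4.74% lower). CAM1 had 1145, 1404 and 1352 with BA against 612, 683 and 894 without (log2 change 0.85 ± 0.17, adjusted p = 0.18 from limma). CAM61, which also carries the calmodulin-like name CML1, had 18.0, 19.3 and 18.1 with BA, near the floor, against 58.1, 29.2 and 42.9 without (log2 change -1.14 ± 0.24, adjusted p = 0.21 from limma). The groups of both genes did not overlap, while CAM2 (0.13) and CAM3 (-0.18) overlapped. In the related SnRK1 and SnRK2 kinases, 1 of 13 was past the study's thresholds on each side (7.69%, against 3.18% of all genes higher and 4.74% lower). OSK3, a SnRK1 catalytic subunit of energy and starvation signalling, had 756, 673 and 665 with BA against 451, 446 and 421 without, and every BA array was above (log2 change 0.67 ± 0.085, adjusted p = 0.080 from limma). It was read from a probe set of the class open to cross-hybridization (_x_at), as were CBL9, HAK22 and AKT1. OSK24, from an _s_at probe set, also had every BA array above (0.35, adjusted p = 0.53 from limma). SAPK7, a SnRK2 kinase of the osmotic stress group, had 45.4, 63.4 and 61.5 with BA against 114, 84.7 and 71.4 without (log2 change -0.64, adjusted p = 0.46 from limma).

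The potassium and sodium transport genes, listed by name, include AKT1, a target of a CBL-CIPK pair. Whether the others are such targets was not examined here. Of 24 measured, 1 was past the study's thresholds on the higher side (4.17%, against 3.18% of all genes). On the lower side 4 were past them (16.7%, against 4.74%), and the list median was -0.079. HAK17, a potassium transporter gene, had 326, 319 and 336 with BA against 53.0, 75.3 and 191 without, and untreated replicate 3 was the nearest to the BA arrays (log2 change 1.83 ± 0.45, adjusted p = 0.29 from limma). HAK10 of the same family had 122, 141 and 172 with BA against 359, 242 and 287 without (log2 change -1.02 ± 0.19, adjusted p = 0.16 from limma). HAK2 had 48.7, 54.2 and 49.2 with BA against 74.6, 68.6 and 97.3 without (log2 change -0.64, adjusted p = 0.24 from limma). HAK22 and HAK9 were the other 2 on the lower side, each with a change of -0.71. The channel gene AKT1, the target of CIPK23, overlapped at -0.47 with an interval from -1.57 to 0.63. None of 11 calcium channel, pump and exchanger genes was past the study's thresholds. On each side 1 had an unadjusted limma p under 0.05 (9.09%, against 6.42% of all genes higher and 7.84% lower). These were CAX2, a cation/proton exchanger, at 0.54 and ACA5, a calcium pump, at -0.57. RbohB, an NADPH oxidase of the kind CPKs phosphorylate, overlapped at -0.69, and CCAMK, the kinase that decodes nuclear calcium in root symbiosis, at 0.038.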

How the data were processed

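RNA of detached leaves was hybridised to 6 rice arrays. For each array the authors deposited a linear intensity of every probe set, summarised by PLIER with variance stabilization. RMA is named as well in the submitters' processing notes. Software versions, what RMA was used for and how arrays were scaled are not given in the sources read for this text. No further normalization was applied. Of 57381 probe sets, 123 controls were left out. Gene names came from the platform annotation, whose gene identifiers were looked up among the RefSeq names of assembly ASM3414082v1. Of the probe sets 22436 listed 1 gene, and the brightest of these stood for its gene. The 57258 values of log2(signal + 1) were compared between 3 BA and 3 untreated arrays by lmFit and eBayes of limma 3.58.1 (R 4.3.3, two-sided, Benjamini-Hochberg over all 57258). Every p and adjusted p in the text is from limma. Fold changes on this scale understate changes of dim genes. The fit was tested on simulated data.

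The members and lists were chosen with earlier results of these data known. Genes named are members past the study's thresholds and, per family, the 3 with the smallest p in each direction and the 3 brightest; of partner lists, up to 3 past the thresholds. Others were added for their role, to complete a count, or after their values were seen. The 19 alternatives covered normalization between arrays, the offset, array weights, a trend in the spread, removal of dim probe sets, the choice of probe set, the replicate number as a block, BA replicates 2 and 3 averaged, a test without moderation, and each array left out. The number of arrays limits the precision, and p-values measure only the spread between these samples.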

Additional observations from a re-analysis of the deposited data

How the results depend on the processing

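No CPK or CIPK gene passed an adjusted p under 0.05 in limma, at the main setting (an unadjusted p under 0.05 was met by 3 higher and 7 lower) or under any of the 19 alternatives, including the test without moderation. The counts at the study's thresholds moved more. The share of all genes past them was computed only at the main setting and with each array left out. With an array left out it ran from 2.37% to 4.46% higher and from 3.71% to 6.56% lower. On the lower side it was highest without untreated replicate 3. Under the other alternatives a shift particular to the kinases cannot be told from a shift of all genes. Of CPKs, 0 were higher at the main setting, 1 with array weights and 0 to 2 with an array left out (2 without BA replicate 1, 1 without untreated replicate 2). CPKs on the lower side numbered 2 at the main setting, 1 with arrays centred on their median, 1 with an offset of 16, 4 with the eBayes trend, 4 with array weights, 0 with BA replicates 2 and 3 averaged, 0 in the test without moderation and 0 to 4 with an array left out. The 4 were reached without untreated replicate 3, and 0 were left without BA replicate 2, without BA replicate 3 and without untreated replicate 1. Of CIPKs, 1 was higher at the main setting, 0 with an offset of 16, 2 with array weights and 0 to 2 with an array left out, with 0 without untreated replicate 3 and 2 without BA replicate 1, untreated replicate 1 or untreated replicate 2. The count of 3 CIPKs on the lower side stayed at 2 or 3 throughout. The CPK median of -0.097 was -0.28 over probe sets above the median signal, and between -0.26 and -0.0082 with an array left out. The CIPK median of -0.18 stayed between -0.20 and -0.083. Quantile normalization and centring moved the median of all probe sets by under 0.01.

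The sign of the change held under every alternative for 29 of the 44 genes and turned under at least 1 for 15, whose largest change at the main setting was 0.49 in size. With an array left out it turned for 13: CIPK14 (-0.28 to 0.48), CIPK24 (-0.0060 to 0.20), CPK13 (-0.27 to 0.079), CIPK23 (-0.093 to 0.30), CIPK25 (-0.051 to 0.75), CIPK5, CIPK6, CIPK17, CIPK18, CIPK30, CPK5, CPK24 and CPK29. For CIPK7 and CPK18 it turned only with another choice of probe sets. CIPK14 and CIPK24 turned without untreated replicate 2. Same-numbered BA and untreated arrays deviated together with r = 0.42, -0.013 and 0.42, while the other pairings lay between -0.40 and 0.27. The main fit did not take the numbers as pairs, and these values do not settle whether they are. With the replicate block, the counts at the study's thresholds were again 0 and 2 CPKs and 1 and 3 CIPKs on the higher and lower side. Single p-values moved both ways. The unadjusted limma p of CIPK31 went from 0.12 to 0.0041 and that of CIPK29 from 0.0029 to 0.00083. That of CIPK1 rose from 0.012 to 0.0245 and that of CPK8 from 0.026 to 0.054. The causes of these shifts were not tested. Signals near the floor of 16 limit what can be seen of CPK2, CPK6, CPK21, CPK22, CPK29 and CIPK30.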
